A study of Mus musculus with 12 samples.

Results

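The values described here are the differences between 2 responses to the DNA-methylating agent methyl methanesulfonate (MMS) in mouse liver: the response of Aag knock-out mice (MMS-treated minus untreated) minus the response of wild-type mice (MMS-treated minus untreated). Every probe set on the array other than the manufacturer's control probe sets was included, which gave 22626 of 22690 probe sets and, with 1 probe set per gene, 12393 named genes. The difference draws on all 12 arrays of the series, 1 per animal and 3 per group. The groups were MMS-treated Aag knock-out, untreated Aag knock-out, MMS-treated wild type and untreated wild type, all of them C57Bl/6J mice of 6 to 8 weeks. Treated mice received 1 intraperitoneal dose of 75 mg/kg MMS and the liver was taken 6 h later. The sources used here do not say whether the untreated mice were injected, at what time of day livers were taken, or which exons the knock-out lacks. Values are log2 expression, a response is a log2 difference, and a positive difference of responses means that MMS moved the gene higher in knock-out than in wild-type liver.

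MMS adds methyl groups to DNA bases. Aag, the alkyladenine DNA glycosylase encoded by Mpg, cuts out methylated purines such as 3-methyladenine and so starts base excision repair, after which an endonuclease, a polymerase and a ligase rebuild the strand. The intermediates of this repair are strand breaks that activate the NAD-consuming enzyme Parp1, so a liver without Aag keeps more of the methylated bases and forms fewer of those breaks. The comparison addresses which transcripts respond to MMS differently when the glycosylase is missing.

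Mpg itself was checked first. At the probe set with the wider gap between genotypes, its log2 values were 5.75, 5.34 and 5.32 in MMS-treated and 5.44, 5.60 and 4.95 in untreated knock-out liver, against 6.40, 6.94 and 6.80 in MMS-treated and 6.21, 6.49 and 6.58 in untreated wild-type liver. Every knock-out array was below every wild-type array. The response to MMS differed little between genotypes there, by -0.14 ± 0.30 (SE; limma adjusted p = 0.833). The other probe set has the higher mean, the rule by which genes are represented below, and its groups overlapped. Its means were 7.92 in MMS-treated and 7.66 in untreated knock-out liver, against 8.24 and 7.97 in wild-type liver. The difference of responses there was -0.01 ± 0.27. The first probe set is shown for its wider gap, so its separation of the genotypes is a description. Where these probe sets lie with respect to the deletion was not determined here.

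Array medians lay between 7.42 and 7.75 and pairs of arrays correlated at 0.962 to 0.995, and 9 of the 12 arrays were closest to an array of their own group. Of the others, the third MMS-treated knock-out array was closest to an untreated wild-type array (r = 0.989). The third untreated knock-out array was closest to the third MMS-treated knock-out array, and the first MMS-treated wild-type array to an untreated knock-out array. The 18 measured hepatocyte markers averaged between 13.64 and 13.87 on every array. Several arrays stood apart within their group, and their values are given beside the results they touch. The third untreated knock-out array had a clock score, the mean of evening-peaking minus that of dawn-peaking clock genes after centring each gene, of 1.92, while the other untreated knock-out arrays had -1.05 and -1.38. The 15 pancreatic acinar markers had a centred mean of 2.39 on the first MMS-treated knock-out array and 1.0 on the first MMS-treated wild-type array, and between -0.76 and -0.09 on the others. The 13 adipocyte and muscle markers stood at 2.58 on the third untreated wild-type array and at most 0.57 elsewhere. The control probe sets for actin and Gapdh gave a 5′ minus 3′ signal, a measure of RNA quality, of -1.61 and -1.51 on the first and second MMS-treated knock-out arrays and between -2.66 and -2.001 on the other 10 arrays. What part these features have in the results was not tested beyond the refits without single arrays and with the 5′ to 3′ signal as a covariate.

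**Figure D1:**
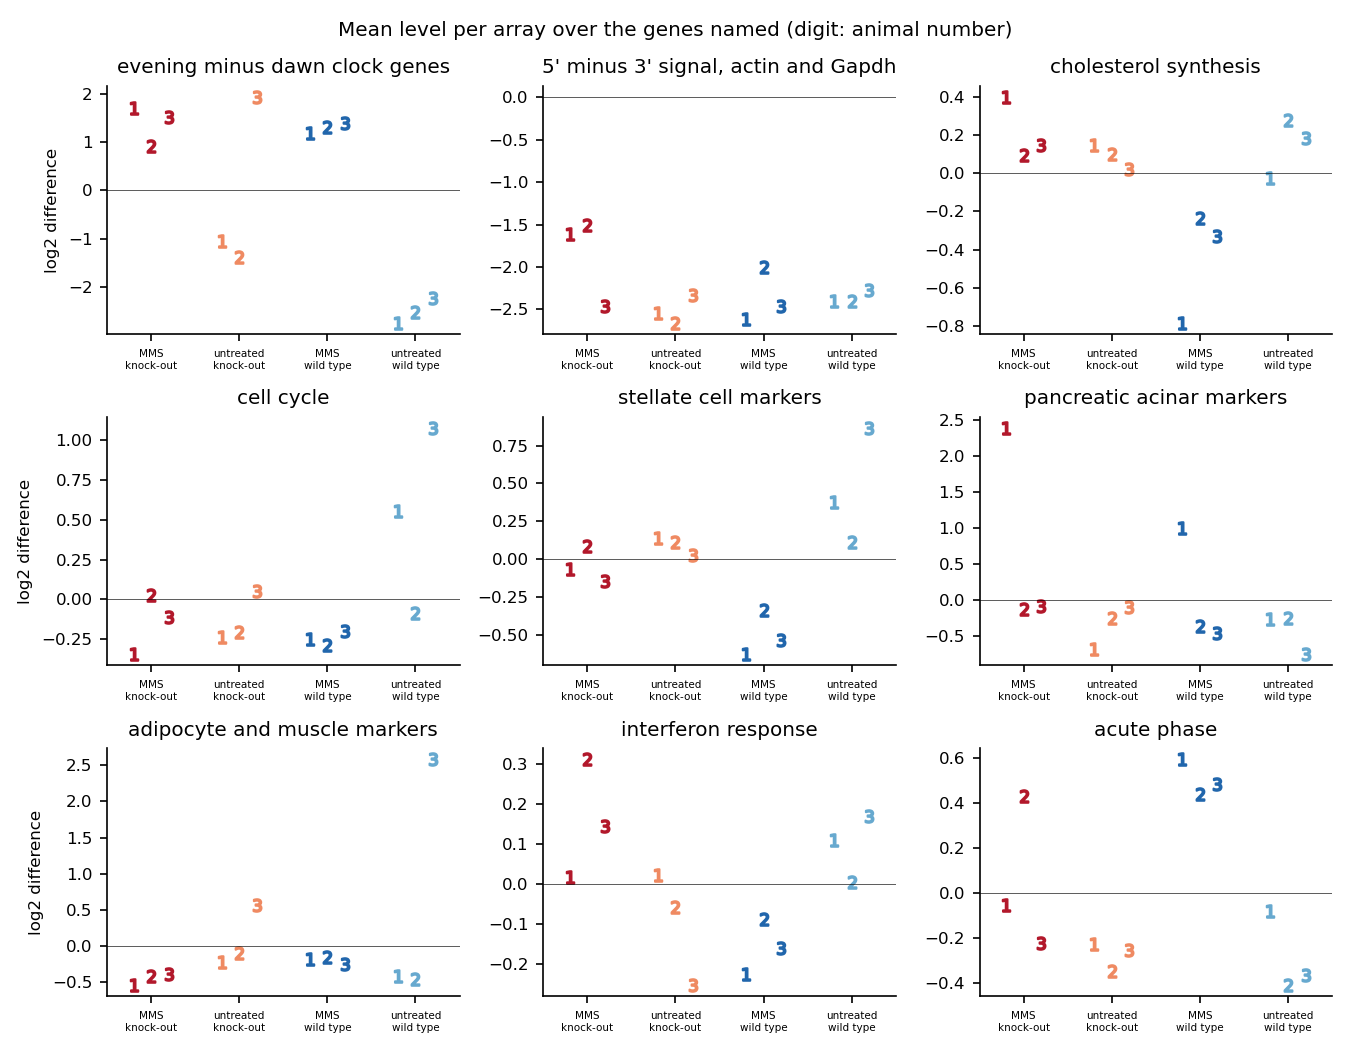
Per-array measures, with the 4 groups along each horizontal axis and the log2 difference on the vertical axis; each digit is 1 animal, gene lists are means of values centred on each gene's mean over the 12 arrays, and the clock score and the 5′ minus 3′ signal are differences of means. The third untreated knock-out array stands at 1.92 in the clock score, the third untreated wild-type array at 2.58 in adipocyte and muscle markers, and the first MMS-treated knock-out array at 2.39 in acinar markers.

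No single probe set passed the threshold for a difference between the responses (limma, adjusted p under 0.05: 0 of 22626, 0%). The lowest adjusted p was 0.0649, shared by 31 probe sets, and 93 lay under 0.1 and 1657 under 0.2. At an unadjusted p under 0.05 there were 4009 probe sets (17.7%), 2215 higher in the knock-out response (9.79%) and 1794 lower (7.93%), and 1008 of the 4009 differed at least 2-fold. A model without moderated variances also gave 0, while other settings gave between 0 and 2344 calls. In knock-out liver 341 probe sets (1.51%) passed for the MMS response, 169 higher (0.747%) and 172 lower (0.760%). In wild-type liver 1458 (6.44%) passed, 451 higher (1.99%) and 1007 lower (4.45%). Of the 12393 genes, 1.70% passed in knock-out liver (0.888% higher, 0.815% lower) and 7.53% in wild-type liver (2.20% higher, 5.33% lower). Counts of list members that rose or fell are to be read against these shares. Counts of members with a difference at an unadjusted p under 0.05 are to be read against 10.7% of all genes positive and 7.74% negative. The knock-out count was 0 without MMS-treated knock-out array 1 or 2, 0 without untreated knock-out array 1 and 0 with the 5′ to 3′ signal as a covariate, but 3264 without MMS-treated knock-out array 3. Genes named below did not pass the test for the difference of responses, and the words rose and fell are used of a response within 1 genotype that passed.

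Among the 4009 probe sets with an unadjusted p under 0.05, the form of the responses is a description, since selection by the difference itself favours opposite signs. In 3269 of them (81.5%) the responses had opposite signs, with 1663 positive in knock-out and negative in wild-type liver and 1606 the reverse. The responses had the same sign and were larger in knock-out liver in 264 (6.59%), and larger in wild-type liver in 476 (11.9%). Over all 22626 probe sets the responses of the genotypes, which share no array, had the same sign in 58.1% and correlated at r = 0.314 (Spearman rho = 0.241), as a description across probe sets that share their normalization. Their SDs across probe sets were 0.42 in knock-out and 0.46 in wild-type liver.

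Probe sets called in 1 genotype mostly kept their sign in the other, at a smaller size. The 169 that rose in knock-out liver had a median response of 0.91 there and 0.31 in wild-type liver, where 85.8% were positive, against 43.3% of all probe sets, and 33 also rose. The 172 that fell in knock-out liver had medians of -0.86 and, in wild-type liver, -0.58, where 90.7% were negative, against 56.7% of all, and 81 also fell. For the 451 that rose in wild-type liver the median was 0.35 in knock-out liver and 0.81 in wild-type liver, with 74.9% positive in knock-out liver against 43.7% of all. For the 1007 that fell in wild-type liver it was -0.32 in knock-out liver and -0.88 in wild-type liver, with 80.6% negative in knock-out liver against 56.3% of all. These sizes are a description, since the probe sets were chosen by 1 of the responses. Calls in opposite directions numbered 5. Papln, Prss21 and a probe set of Nes, which encodes the filament protein nestin and was named after its values were seen, fell in knock-out and rose in wild-type liver, while Oasl1 and Wbscr25 rose in knock-out and fell in wild-type liver.

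**Figure D2:**
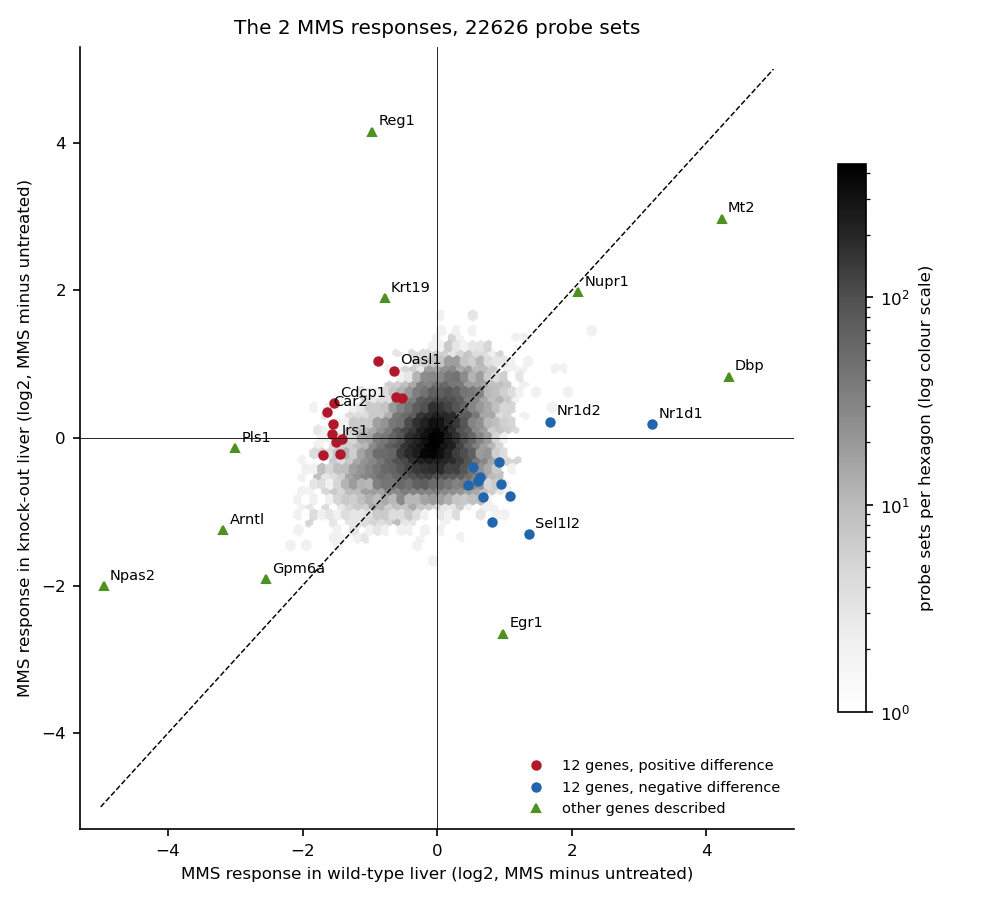
MMS response in knock-out liver (vertical axis) against wild-type liver (horizontal axis), both as log2 MMS-treated minus untreated, for 22626 probe sets; grey hexagons count probe sets on a log colour scale, red and blue points are the 12 genes with the smallest p in each direction of the difference, green triangles are other genes described, and the dashed line marks equal responses. The red genes lie at negative wild-type and near-zero or positive knock-out responses, Nr1d1 and Dbp at 3.19 and 4.33 in wild-type and 0.19 and 0.83 in knock-out liver, and Nupr1 lies close to the line.

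The 12 genes with the smallest p and a positive difference all fell in wild-type liver, and 2 of them, Oasl1 and Wbscr25, rose in knock-out liver. Irs1, the adaptor that carries the insulin receptor's signal, had log2 values of 10.73, 10.80 and 10.75 in MMS-treated and 10.86, 10.85 and 10.70 in untreated knock-out liver, against 9.89, 9.65 and 10.10 in MMS-treated and 11.42, 11.33 and 11.41 in untreated wild-type liver. All 6 knock-out values lay between the treated and the untreated wild-type values. Irs1 fell by 1.51 ± 0.13 in wild-type liver (limma adjusted p = 0.0011) and stood at -0.05 ± 0.13 in knock-out liver, a difference of 1.46 ± 0.18 (95% interval 1.07 to 1.85, adjusted p = 0.0649). Scd2, a stearoyl-CoA desaturase that makes monounsaturated fatty acids, had the same arrangement, with 9.06, 8.89 and 8.94 in MMS-treated and 9.01, 9.05 and 8.88 in untreated knock-out liver, against 8.23, 8.05 and 8.39 in MMS-treated and 9.85, 9.45 and 9.61 in untreated wild-type liver. Its difference was 1.40 ± 0.19 (95% interval 0.97 to 1.82), and both of its other probe sets were also positive.

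Oasl1, an interferon-induced regulator of antiviral responses, moved in opposite directions. It had 8.83, 9.01 and 9.08 in MMS-treated and 8.23, 8.10 and 7.85 in untreated knock-out liver, against 7.92, 8.09 and 8.34 in MMS-treated and 8.83, 8.62 and 8.81 in untreated wild-type liver. The treated and untreated arrays did not overlap in either genotype. It rose by 0.91 ± 0.15 in knock-out liver (limma adjusted p = 0.0313) and fell by 0.64 ± 0.15 in wild-type liver (adjusted p = 0.0328), a difference of 1.55 ± 0.21. Wbscr25 likewise rose by 1.05 ± 0.20 in knock-out liver and fell by 0.88 ± 0.20 in wild-type liver, a difference of 1.92 ± 0.29.

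The other genes of this group fell in wild-type liver and did not pass in knock-out liver. Cdcp1, a membrane protein phosphorylated by Src kinases, had 9.05, 8.54 and 8.94 in MMS-treated and 8.53, 8.60 and 7.99 in untreated knock-out liver, against 7.58, 7.85 and 7.95 in MMS-treated and 9.57, 9.10 and 9.31 in untreated wild-type liver. The wild-type groups were far apart and the knock-out groups overlapped, with a difference of responses of 2.01 ± 0.29. Car2, a cytosolic carbonic anhydrase, stood at a difference of 1.98 ± 0.32 and Afmid, the formamidase of the kynurenine route from tryptophan to NAD, at 1.73 ± 0.29. Aqp8, a water channel of hepatocytes, differed by 1.46 ± 0.22 and Anp32a, a nuclear phosphoprotein, by 1.22 ± 0.20. Hip1, an endocytic adaptor, was at 1.17 ± 0.19. For Psen2, a catalytic subunit of the gamma-secretase protease (1.62 ± 0.25), and Ap3m2, a subunit of the AP-3 sorting adaptor (1.07 ± 0.18), the other probe sets, 1 and 2 in number, had the opposite sign.

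The gaps between genotypes with and without MMS are the terms of the difference that ranked these genes, so they are given as a description. In all 12 the untreated knock-out mean was below the untreated wild-type mean and the treated knock-out mean above the treated wild-type mean. For Irs1 the knock-out minus wild-type value was 0.88 after MMS and -0.58 without it. All 12 also lay above the median level of the array of 7.58, at 8.12 to 10.73.

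The 12 genes with the smallest p and a negative difference included clock repressors and several dim probe sets. Of the 12, 11 rose in wild-type liver and 3, Papln, Prss21 and Eya3, fell in knock-out liver. Papln, an extracellular matrix protein, had 5.44, 5.33 and 5.36 in MMS-treated and 6.17, 6.42 and 5.96 in untreated knock-out liver, against 6.54, 6.22 and 6.26 in MMS-treated and 5.78, 5.61 and 5.59 in untreated wild-type liver. The treated and untreated arrays did not overlap in either genotype. It fell by 0.80 ± 0.14 in knock-out liver and rose by 0.68 ± 0.14 in wild-type liver, a difference of -1.48 ± 0.20 (95% interval -1.93 to -1.04, limma adjusted p = 0.0649). Prss21, a membrane-anchored serine protease, fell by 1.14 ± 0.21 in knock-out liver and rose by 0.82 ± 0.21 in wild-type liver.

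Sel1l2, a relative of the endoplasmic reticulum degradation adaptor Sel1l, had 5.21, 5.29 and 5.50 in MMS-treated and 6.85, 6.91 and 6.16 in untreated knock-out liver, against 6.72, 7.46 and 6.28 in MMS-treated and 5.38, 5.86 and 5.13 in untreated wild-type liver. Treated arrays were the lower ones in knock-out and the higher ones in wild-type liver, without overlap, and the difference was -2.67 ± 0.43. It rose by 1.36 ± 0.30 in wild-type liver and stood at -1.30 ± 0.30 in knock-out liver (limma adjusted p = 0.0566). Ang2, a ribonuclease of the angiogenin family, differed by -1.88 ± 0.27 and Selenov, a selenoprotein, by -1.58 ± 0.27. Hba-a1, an alpha-globin gene with a near-identical copy whose signal may not be separable, differed by -1.25 ± 0.19. Plxna1, a semaphorin receptor, was at -1.19 ± 0.20, Trp53i13, a p53-induced gene, at -1.17 ± 0.19 and Skap2, an adaptor of immune cell signalling, at -0.93 ± 0.15. Eya3, a phosphatase and transcription coactivator (-1.09 ± 0.19), had another probe set of opposite sign. Of these 12 genes 4 lay above the median level of the array, with a range of 4.74 to 11.23, and no detection call came with the values.

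All 24 genes kept the sign of their difference in every alternative setting in which they were tested, between 22 and 24 settings each, and each passed the threshold in at least 1 of them. These settings refit the arrays by which the genes were chosen, which favours a kept sign. Both statements are therefore a description and no independent test. For Irs1 the difference without 1 array at a time was 1.35 to 1.57, and for Nr1d1 it was -3.38 to -2.77. With all probe sets of a gene averaged, 5 genes had differences much smaller than above: Ap3m2 stood at 0.18, Hip1 at 0.52, Psen2 at 0.79, Scd2 at 0.91 and Eya3 at -0.51.

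**Figure D3:**
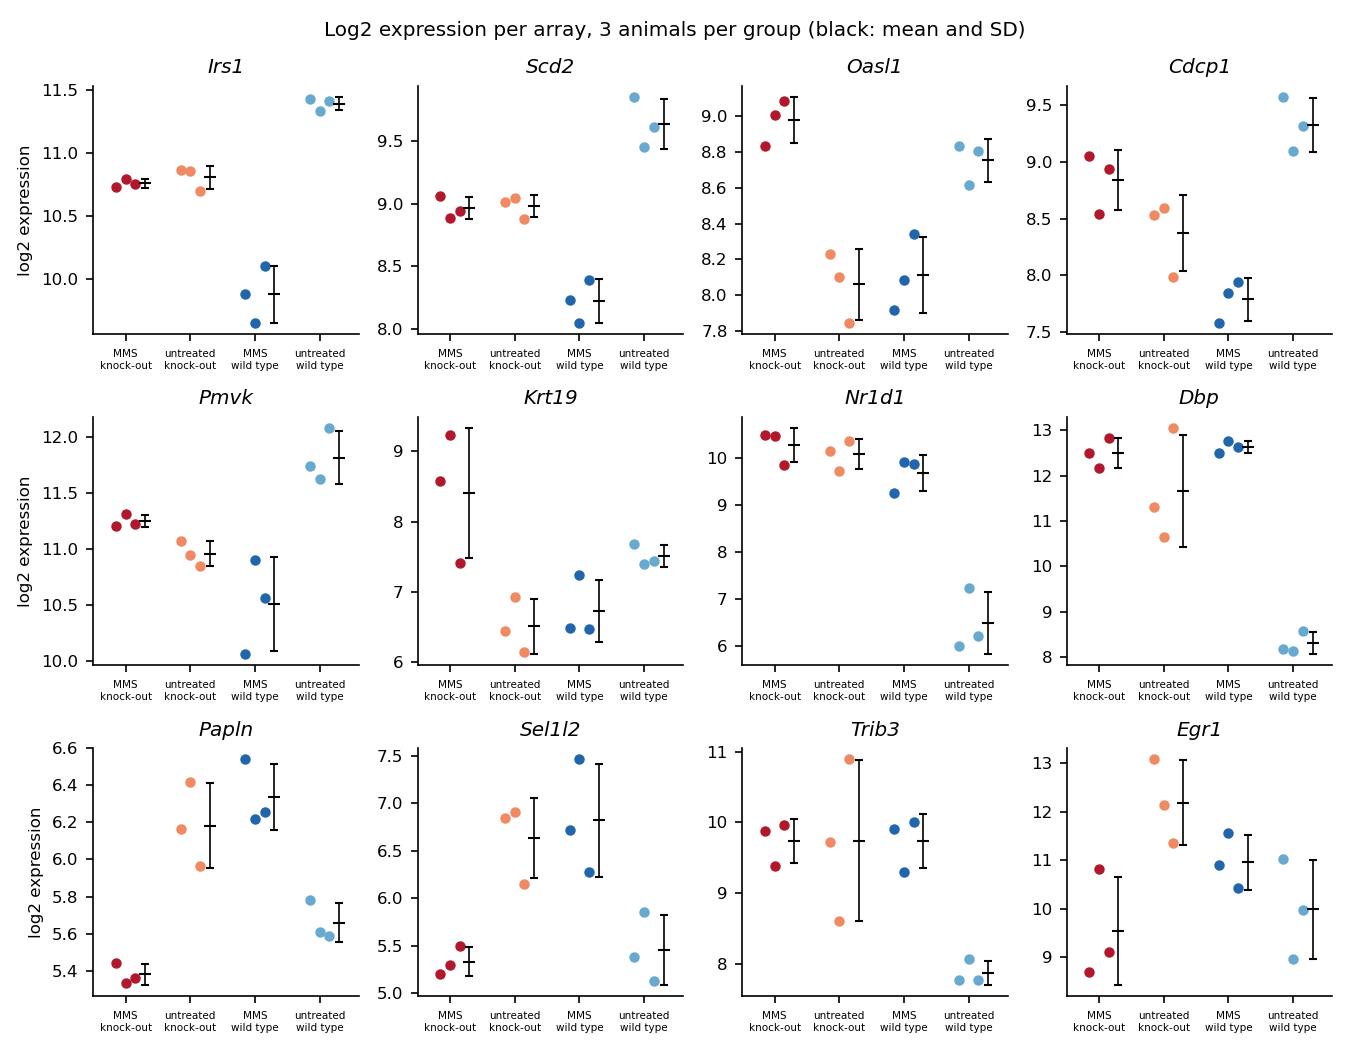
Log2 expression of 12 genes, with the groups MMS-treated knock-out, untreated knock-out, MMS-treated wild type and untreated wild type along each horizontal axis; points are single animals (n = 3 per group) and black bars the mean and SD. Irs1 and Scd2 have overlapping knock-out groups between separated wild-type groups, Oasl1 and Papln move in opposite directions in the genotypes, and 1 untreated knock-out array stands high for Dbp and Trib3.

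Expression level moved with the difference of responses across the whole array. With probe sets ordered by mean log2 level into 10 equal classes, the median difference was -0.09, -0.29 and -0.17 in the 3 lowest classes, 0.01, 0.18, 0.29, 0.23 and 0.16 in the following 5, and 0.08 and 0.02 in the highest. In class 2 30.5% of probe sets were positive and in class 6 74.7%. After a further quantile normalization of the arrays the medians of all classes lay between -0.04 and 0.03. The median over all probe sets was 0.05 as deposited, -0.01 after that step, and -0.21 when array medians were set equal instead. Positive values made up 55.3%, 42.8% and 14.6% of those at an unadjusted p under 0.05 in the same order. Setting array medians equal, called centring below, lowers every difference by the same amount. The median over the named genes was then -0.20. The balance of direction over the array therefore depends on the scaling, and the differences of genes and lists are to be read against these shifts.

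**Figure D4:**
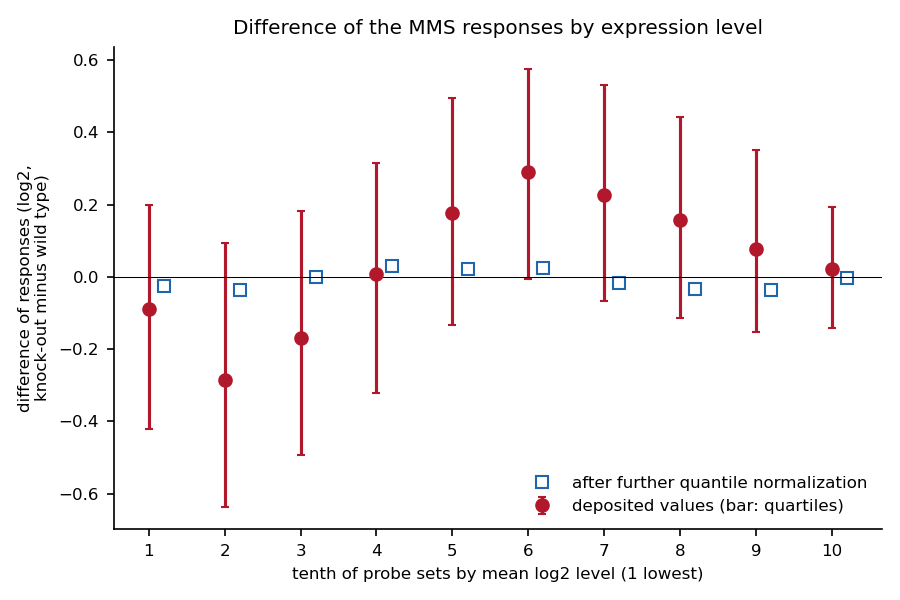
Difference of the MMS responses (vertical axis, log2, knock-out minus wild type) by class of mean log2 level (horizontal axis, 10 equal classes, lowest to highest); red points are medians of deposited values with bars to the quartiles, and blue squares are medians after a further quantile normalization. The deposited medians run between -0.29 in class 2 and 0.29 in class 6, and the normalized medians between -0.04 and 0.03.

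Genes of the circadian clock had large differences in size. In the liver the complex of Arntl with Clock or Npas2 switches on the genes of the period, cryptochrome and Nr1d families and output factors such as Dbp, whose products then switch the complex off, so that dawn-peaking and evening-peaking transcripts alternate over the day. Of 11 measured evening-peaking genes 0 had a positive and 4 a negative difference at an unadjusted p under 0.05 (10.7% and 7.74% of all genes), with a median of -0.53 against 0.06 over all genes. Of 5 dawn-peaking genes 2 were positive and 0 negative, with a median of 0.90. In wild-type liver 5 evening genes (Dbp, Tef, Nr1d1, Nr1d2 and Bhlhe41) rose and 3 dawn genes (Arntl, Npas2 and Cry1) fell. In knock-out liver none of either list passed, where 1.70% of all genes did, against 7.53% in wild-type liver. The responses still had the same direction by their medians. The evening list stood at 0.77 in knock-out and 1.35 in wild-type liver, and the dawn list at -0.96 and -1.86.

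Nr1d1, a nuclear receptor that represses Arntl, had 10.48, 10.45 and 9.84 in MMS-treated and 10.15, 9.72 and 10.34 in untreated knock-out liver, against 9.24, 9.91 and 9.85 in MMS-treated and 5.99, 7.22 and 6.21 in untreated wild-type liver. Only the untreated wild-type arrays were low, and all 3 untreated knock-out arrays were at the level of treated liver. The response was 0.19 ± 0.33 in knock-out and 3.19 ± 0.33 in wild-type liver, a difference of -3.01 ± 0.46 (95% interval -4.02 to -1.99, limma adjusted p = 0.0649). Its relative Nr1d2 showed the same arrangement, with a response of 0.22 ± 0.18 in knock-out and 1.68 ± 0.18 in wild-type liver and a difference of -1.46 ± 0.25.

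Other clock genes were split among the untreated knock-out arrays. Dbp had 12.49, 12.16 and 12.83 in MMS-treated and 11.31, 10.64 and 13.04 in untreated knock-out liver, against 12.49, 12.77 and 12.64 in MMS-treated and 8.19, 8.14 and 8.58 in untreated wild-type liver. The third untreated knock-out array was the highest of all 12, and the others of that group lay between the untreated wild-type and the treated arrays. The difference for Dbp was -3.50 ± 0.66. Npas2 had 5.71, 6.07 and 6.18 in MMS-treated and 8.89, 9.20 and 5.89 in untreated knock-out liver, against 5.78, 3.99 and 5.37 in MMS-treated and 10.20, 10.04 and 9.78 in untreated wild-type liver. Here the third untreated knock-out array was at the level of treated liver. The difference was 2.95 ± 1.03 (limma adjusted p = 0.204), and its second probe set was of opposite sign. Arntl, with 10.07, 10.20 and 7.06 in untreated knock-out liver, was divided in the same way, at a difference of 1.93 ± 0.91.

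The clock score was 1.71, 0.92 and 1.51 in MMS-treated and -1.05, -1.38 and 1.92 in untreated knock-out liver, against 1.18, 1.32 and 1.38 in MMS-treated and -2.75, -2.53 and -2.23 in untreated wild-type liver. The treated arrays of both genotypes overlapped, the untreated wild-type arrays were lowest, and the untreated knock-out arrays did not lie together. Without the third untreated knock-out array the median difference of the evening list was 0.15 in place of -0.53, and that of the dawn list 0.79 in place of 0.90. Without it Npas2 stood at 1.90 and Arntl at 0.90, both smaller than with all arrays. Dbp (-2.81), Nr1d1 (-2.87) and Nr1d2 (-1.30) were also smaller in size but passed the test, with limma adjusted p values of 0.0204, 0.0436 and 0.0436. That array was picked out by the clock score, which is made from these same genes, and leaving it out changes their estimated spread. These passes are therefore a description and no independent test. Time of day is not given for any animal, nor whether the untreated mice were injected, so the treatment and such features of the groups cannot be told apart here.

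The clock complex binds the E-box, whose letters are CACGTG and read the same on both strands. In the RefSeq promoter table (GRCm38.p6), 250 bases before to 50 bases after each gene start, these letters occur in 7.15% of 32851 promoters, in 4 of the 10 evening genes with an entry (Tef, Per1, Bhlhe41 and Tspan4) and in 1 of the 5 dawn genes (Cry1). The promoters belong to 27025 genes, and a list gene was counted if any of its promoters held the letters. The share over promoters and the counts of genes are therefore not in the same unit. Of the clock genes described by value, Bhlhe41, a repressor of the clock complex, and Cry1, a cryptochrome, hold it, and their promoters are shown for that reason with the E-box in capitals. Bhlhe41 lies on the minus strand at chr6:145865371-145865670 and Cry1 on the minus strand at chr10:85185005-85185304.
Bhlhe41: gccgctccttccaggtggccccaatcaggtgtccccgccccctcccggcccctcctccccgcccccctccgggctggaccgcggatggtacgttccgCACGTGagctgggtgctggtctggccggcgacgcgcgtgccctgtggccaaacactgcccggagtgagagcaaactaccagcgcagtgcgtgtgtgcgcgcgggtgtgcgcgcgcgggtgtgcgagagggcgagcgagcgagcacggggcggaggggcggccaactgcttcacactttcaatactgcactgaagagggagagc
Cry1: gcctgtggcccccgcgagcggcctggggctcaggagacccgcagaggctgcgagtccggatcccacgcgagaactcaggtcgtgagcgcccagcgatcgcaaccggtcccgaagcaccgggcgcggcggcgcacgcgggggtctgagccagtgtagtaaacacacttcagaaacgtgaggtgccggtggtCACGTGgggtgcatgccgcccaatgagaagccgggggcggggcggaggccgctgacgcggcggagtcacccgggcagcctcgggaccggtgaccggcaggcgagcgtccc
Both promoters hold 1 E-box, and the genes' differences had opposite signs. Bhlhe41 had 5.33, 4.98 and 5.19 in MMS-treated and 5.29, 5.29 and 5.20 in untreated knock-out liver, against 5.39, 5.61 and 5.51 in MMS-treated and 4.38, 4.90 and 4.79 in untreated wild-type liver, a difference of -0.91 ± 0.21. Cry1 had 8.89, 8.36 and 9.16 in MMS-treated and 9.62, 10.12 and 9.55 in untreated knock-out liver, against 9.07, 9.15 and 9.01 in MMS-treated and 10.95, 10.65 and 11.20 in untreated wild-type liver, a difference of 0.90 ± 0.32. Treated Cry1 values were below untreated ones in both genotypes. Bhlhe41 is dim, with a mean level in class 2 of the 10 classes above, where the median difference was -0.29. Cry1 lies in class 8, where it was 0.16, so the shift with level runs in the direction seen for each gene. A match of letters describes the window and shows no binding.

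Cholesterol synthesis genes had positive differences at the probe set used for each gene, while other probe sets of some members went the other way. All 19 measured members were positive, against 55.2% of all genes, with a median of 0.66. At an unadjusted p under 0.05 11 were positive and 0 negative, against 10.7% and 7.74% of all genes. In wild-type liver 9 fell, where 5.33% of all genes did, with a median response over the list of -0.60. In knock-out liver none passed, where 1.70% of all genes did, and the median was 0.01. The mean of the list after centring each gene was 0.40, 0.09 and 0.15 in MMS-treated and 0.15, 0.10 and 0.02 in untreated knock-out liver, against -0.78, -0.24 and -0.33 in MMS-treated and -0.03, 0.28 and 0.19 in untreated wild-type liver. The treated wild-type arrays were the 3 lowest of the 12, and the knock-out groups overlapped.

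Pmvk, a kinase of the mevalonate pathway, had 11.21, 11.31 and 11.22 in MMS-treated and 11.07, 10.95 and 10.85 in untreated knock-out liver, against 10.06, 10.90 and 10.56 in MMS-treated and 11.74, 11.62 and 12.08 in untreated wild-type liver. It fell by 1.31 ± 0.20 in wild-type liver and stood at 0.29 ± 0.20 in knock-out liver, a difference of 1.60 ± 0.28 (limma adjusted p = 0.0716). Srebf2, the transcription factor that switches on the pathway, had a difference of 1.02 ± 0.21, with 0.51 ± 0.15 in knock-out and -0.51 ± 0.15 in wild-type liver, neither past the threshold. Fdft1, which makes squalene, was at 0.85 ± 0.25, with 2 of its 3 other probe sets opposite in sign, and Fdps, which makes farnesyl diphosphate, at 1.95 ± 0.60, with its other probe set opposite. The median of the list was 0.46 after quantile normalization, 0.40 after centring and 0.54 to 0.84 without 1 array at a time.

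Fatty acid and triglyceride synthesis shared this direction less evenly. Of 25 measured genes 6 were positive at an unadjusted p under 0.05 and 0 negative, with a median of 0.36. In wild-type liver 4 fell, where 5.33% of all genes did, and in knock-out liver none passed, where 1.70% of all genes did. Apart from Scd2, the smallest p values belonged to Acacb, an acetyl-CoA carboxylase (1.55 ± 0.53), Acss2, which makes acetyl-CoA from acetate (0.51 ± 0.18), and Mlxipl, the carbohydrate-responsive transcription factor (0.38 ± 0.15). After centring the median was 0.11. In the list of gluconeogenesis, insulin and glucocorticoid targets, which holds Irs1, 6 of 24 were positive and 2 negative at that level. Tat, a glucocorticoid-induced aminotransferase, had a difference of 1.43 ± 0.27, with 0.82 ± 0.19 in knock-out and -0.61 ± 0.19 in wild-type liver.

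**Figure D5:**
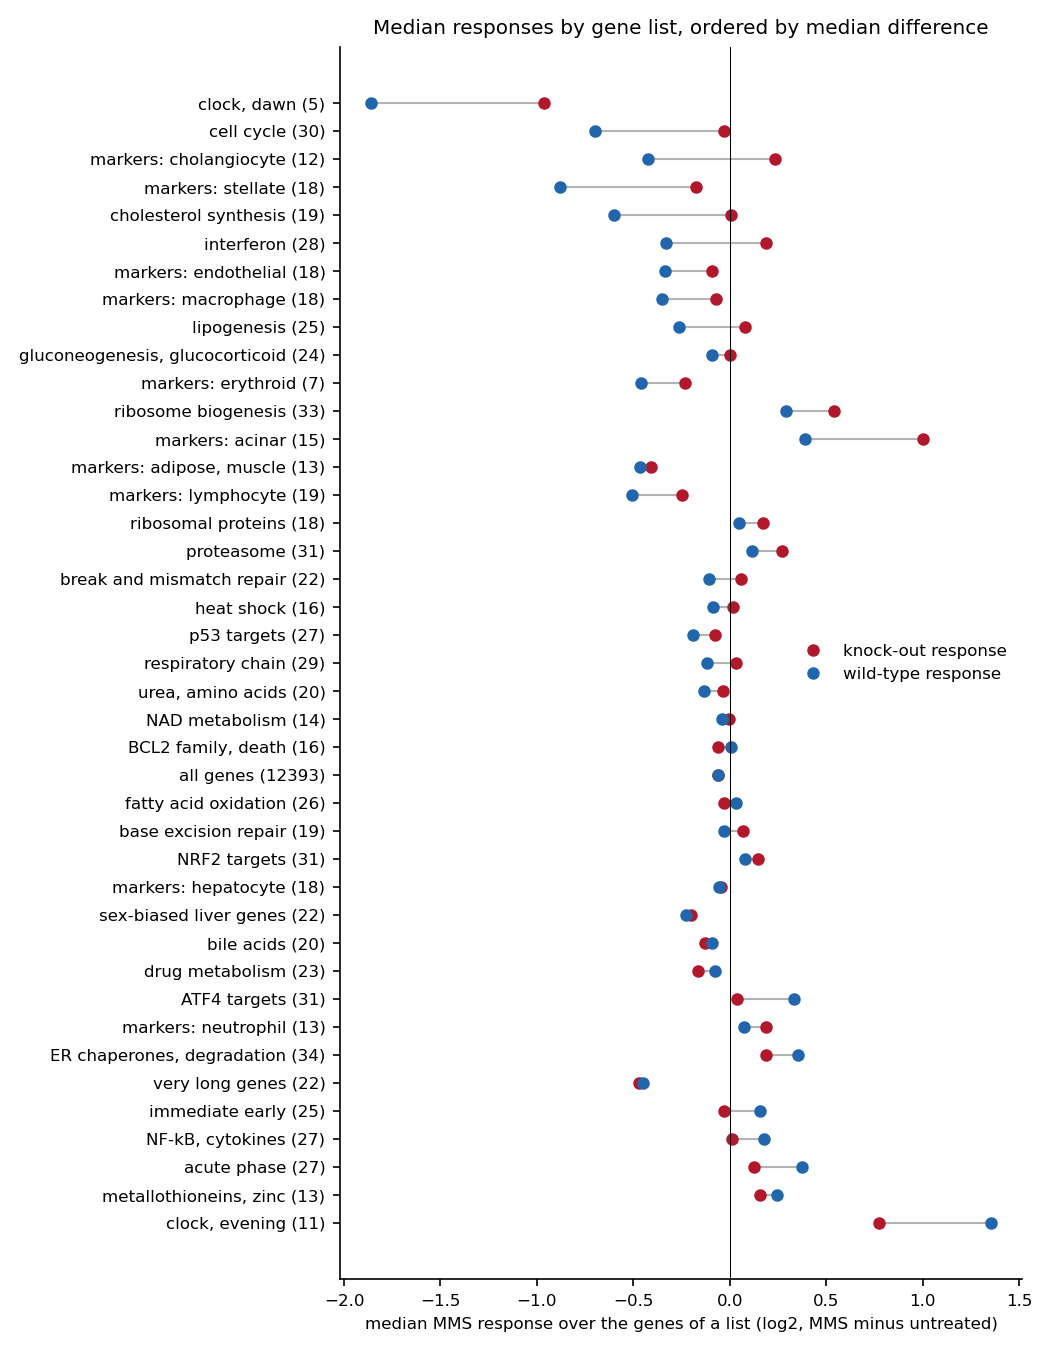
Median MMS response over the genes of each of 40 lists and of all 12393 genes (horizontal axis, log2, MMS-treated minus untreated), ordered by the median difference of responses; red points are knock-out and blue points wild-type liver, and the number of measured genes is in brackets. Cholesterol synthesis lies at 0.01 in knock-out and -0.60 in wild-type liver, acute phase genes at 0.13 and 0.37, and the medians of all genes coincide at -0.06.

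Interferon response genes, which cells switch on against viruses, also had many positive differences. Of 28 measured genes 12 were positive and 1 negative at an unadjusted p under 0.05, with a median of 0.59, with a median response of 0.19 in knock-out and -0.33 in wild-type liver. Oasl1 rose in knock-out liver, while in wild-type liver 6 fell and Isg20, an exonuclease, rose. Over all genes 0.888% rose in knock-out liver, and 5.33% fell and 2.20% rose in wild-type liver. Ifit3, an antiviral RNA-binding protein, had 10.37, 10.98 and 10.16 in MMS-treated and 9.79, 9.42 and 9.53 in untreated knock-out liver, against 9.26, 9.89 and 9.55 in MMS-treated and 10.09, 9.89 and 10.30 in untreated wild-type liver. The knock-out groups did not overlap, and the wild-type groups met at 9.89. Its difference was 1.45 ± 0.32 (limma adjusted p = 0.117). Usp18, which removes the ubiquitin-like modifier Isg15, was at 1.03 ± 0.23, and Ifit1, a relative of Ifit3, at 1.04 ± 0.25. The median of the list stayed positive after quantile normalization (0.39) and centring (0.33).

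Acute phase genes and NF-kB targets had negative medians, while heat shock genes had a positive one (0.14, with 11 of 16 positive, and -0.12 after centring), as did the interferon list above. Of 27 genes of the acute phase, the hepatic reaction to inflammation, 24 had a negative difference, 3 of them (11.1%, against 7.74% of all genes) and no positive one at an unadjusted p under 0.05, with a median of -0.29. Mt2 rose in knock-out liver, where 0.888% of all genes did, and 9 genes rose in wild-type liver, where 2.20% did. Steap4, a metalloreductase induced by cytokines, had 11.81, 12.21 and 11.63 in MMS-treated and 11.89, 11.71 and 11.70 in untreated knock-out liver, against 12.70, 12.42 and 12.56 in MMS-treated and 11.78, 11.33 and 11.50 in untreated wild-type liver. The treated wild-type arrays were the 3 highest, and the knock-out groups overlapped, at a difference of -0.91 ± 0.24. Serpina3n, a protease inhibitor, was at -0.62 ± 0.19, Saa3, a serum amyloid, at -0.996 ± 0.41 and Orm2, a secreted plasma protein, at -1.83 ± 0.89. The mean of the list on the second MMS-treated knock-out array was 0.43, against -0.05 and -0.22 on the others of that group.

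In the list of NF-kB targets, cytokines and chemokines 1 of 27 was positive and 8 negative at an unadjusted p under 0.05, with a median of -0.20. Icam1, a leukocyte adhesion molecule, had 9.82, 10.17 and 9.85 in MMS-treated and 9.21, 9.27 and 9.50 in untreated knock-out liver, against 10.35, 10.71 and 10.36 in MMS-treated and 8.93, 9.09 and 9.03 in untreated wild-type liver. Treated values were higher in both genotypes without overlap. The response was 0.62 ± 0.15 in knock-out liver (limma adjusted p = 0.0566) and 1.45 ± 0.15 in wild-type liver, where it passed, and the difference was -0.83 ± 0.21. Il1r1, the interleukin-1 receptor, was at -1.43 ± 0.35, Tnf, an inflammatory cytokine, at -1.15 ± 0.30 and Socs3, an inhibitor of cytokine signalling, at -2.77 ± 0.99. Socs3 reached 11.13 on the second MMS-treated knock-out array, against 8.40 and 8.51 on the others.

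The unfolded protein response answers misfolded proteins in the endoplasmic reticulum, and the medians of its lists were slightly negative while some members differed by more. Of 34 chaperone and degradation genes 1 was positive and 2 negative at an unadjusted p under 0.05, with a median of -0.14. In knock-out liver Dnajb11, a co-chaperone, and Manf, a secreted stress protein, rose, where 0.888% of all genes did. In wild-type liver 8 genes rose, where 2.20% of all genes did. Herpud1, which takes part in the degradation of misfolded proteins, had a difference of -0.88 ± 0.30, Ern1, the stress sensor IRE1, of -0.74 ± 0.26 and Pdia6, a disulfide isomerase with another probe set of opposite sign, of 0.55 ± 0.20. In the PERK branch, which works through translation and the factor ATF4, 31 targets were measured, of which 1 was positive and 7 negative at that level, with a median of -0.13.

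Trib3, a pseudokinase of that branch, had 9.87, 9.38 and 9.96 in MMS-treated and 9.72, 8.61 and 10.89 in untreated knock-out liver, against 9.91, 9.31 and 10.002 in MMS-treated and 7.78, 8.07 and 7.77 in untreated wild-type liver. The untreated wild-type arrays were the low ones, and the third untreated knock-out array was the highest of the 12. Its difference was -1.87 ± 0.63. Atf3, a stress transcription factor, was at -1.08 ± 0.29 and Fgf21, a fasting and stress hormone, at -0.73 ± 0.18, and both rose in wild-type liver. Ddit4, an inhibitor of mTOR signalling, went the other way, with 10.31, 10.94 and 11.09 in MMS-treated and 9.49, 9.76 and 9.85 in untreated knock-out liver, against 9.39, 9.44 and 10.35 in MMS-treated and 10.53, 10.75 and 11.39 in untreated wild-type liver. Its treated and untreated groups did not overlap in either genotype, and the difference was 2.24 ± 0.43 (limma adjusted p = 0.0923).

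Some of the largest responses had the same direction in both genotypes. Nupr1, a stress-induced chromatin protein, had 9.62, 9.51 and 8.41 in MMS-treated and 7.32, 7.15 and 7.13 in untreated knock-out liver, against 9.50, 9.74 and 9.70 in MMS-treated and 7.23, 7.45 and 7.97 in untreated wild-type liver. It rose by 1.98 ± 0.29 in knock-out and 2.10 ± 0.29 in wild-type liver, and the 95% interval of the difference was -1.02 to 0.78. Gpm6a, a membrane glycoprotein, fell by 1.91 ± 0.33 in knock-out and fell by 2.54 ± 0.33 in wild-type liver, with an interval of the difference of -0.39 to 1.64. Robo1, a guidance receptor, fell by 1.74 ± 0.28 in knock-out and fell by 1.93 ± 0.28 in wild-type liver (interval -0.69 to 1.05). Mt2, a metal-binding metallothionein, rose by 2.97 ± 0.62 in knock-out and 4.23 ± 0.62 in wild-type liver, with the widest interval, -3.19 to 0.68. The intervals of all these genes leave room for unequal responses. Pls1, an actin-bundling protein, fell in wild-type liver by 3.00 ± 0.43 and stood at -0.13 ± 0.43 in knock-out liver, a difference of 2.87 ± 0.61 (limma adjusted p = 0.103).

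Immediate early genes, the first transcription factors to answer a stimulus, had differences in both directions. Of 25 measured genes 4 were positive and 5 negative at an unadjusted p under 0.05, with a median of -0.19 that ranged between -0.32 and 0.05 without 1 array at a time. Egr1, a zinc-finger factor, had 8.70, 10.81 and 9.11 in MMS-treated and 13.09, 12.14 and 11.35 in untreated knock-out liver, against 10.91, 11.56 and 10.42 in MMS-treated and 11.02, 8.97 and 9.97 in untreated wild-type liver. The untreated knock-out arrays were high and the wild-type groups overlapped, at a difference of -3.63 ± 0.92 (limma adjusted p = 0.131). Fosl1, a partner of Jun proteins, was at -1.42 ± 0.35 and Klf2, a factor of vessel lining cells, at 1.21 ± 0.25.

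Genes of DNA repair, the p53 response and NAD metabolism are given beside the 18.5% of all genes at an unadjusted p under 0.05 in either direction. Among 19 measured members of base excision repair and damage reversal 3 were positive and 1 negative at an unadjusted p under 0.05, with a median of 0.05 that was -0.21 after centring. Nthl1, a glycosylase for oxidised pyrimidines, was at 0.78 ± 0.23, Lig1, a DNA ligase, at 1.46 ± 0.47, Apex1, the main endonuclease for sites without a base, at -0.77 ± 0.25 with 1 of 2 other probe sets opposite, and Xrcc1, a repair scaffold, at 0.51 ± 0.23. Of 27 p53 targets 3 were positive and 1 negative (Xpc, a lesion sensor of excision repair, at -0.52 ± 0.19), with a median of 0.13 that was -0.13 after centring. Mdm2, the inhibitor of p53, and Aen, a nuclease, rose in knock-out liver, and Aen also rose in wild-type liver, where Cdkn1a, the cell cycle inhibitor p21, and Plk2, a kinase, fell. Over all genes 0.888% rose in knock-out liver, and 2.20% rose and 5.33% fell in wild-type liver. In break and mismatch repair 2 of 22 were positive and 0 negative, with Msh6, a subunit of the mismatch sensor, at 1.14 ± 0.24 and Fanca, a subunit of the crosslink repair complex, at 0.60 ± 0.25. In NAD metabolism 2 of 14 were positive and 2 negative, with Afmid and Nmnat3, which makes NAD in mitochondria (0.76 ± 0.25), on the positive side and Nnmt, which methylates nicotinamide (-0.62 ± 0.28), and Kmo, a hydroxylase of the kynurenine route (-0.37 ± 0.15), on the negative side.

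Cell cycle genes and the markers of stellate, bile duct, endothelial and macrophage cells had positive median differences, and several of these moved with single arrays. In bulk liver, fewer cells of a type and less RNA per cell cannot be told apart. Of 30 cell cycle and replication genes 12 were positive and 0 negative at an unadjusted p under 0.05, with a median of 0.88. Tk1, the thymidine kinase of S phase, had 9.49, 9.70 and 9.77 in MMS-treated and 9.66, 9.26 and 10.22 in untreated knock-out liver, against 8.17, 8.75 and 8.82 in MMS-treated and 10.43, 9.95 and 10.62 in untreated wild-type liver, a difference of 1.69 ± 0.37. The list mean was -0.34, 0.03 and -0.11 in MMS-treated and -0.23, -0.20 and 0.05 in untreated knock-out liver, against -0.25, -0.29 and -0.20 in MMS-treated and 0.56, -0.09 and 1.07 in untreated wild-type liver. The highest value was that of the third untreated wild-type array, which was also highest for adipocyte and muscle markers. Without it the median was 0.55 with 5 positive genes at that level, and without the second MMS-treated knock-out array it was 0.86 with 7.

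Of 18 stellate cell and fibroblast markers 17 were positive, 12 of them and no negative one at an unadjusted p under 0.05, with a median of 0.80. In wild-type liver 7 fell, where 5.33% of all genes did, and in knock-out liver none passed, where 1.70% of all genes did. The median response was -0.88 in wild-type and -0.18 in knock-out liver. The list mean was -0.07, 0.08 and -0.15 in MMS-treated and 0.14, 0.11 and 0.03 in untreated knock-out liver, against -0.63, -0.34 and -0.54 in MMS-treated and 0.37, 0.11 and 0.86 in untreated wild-type liver. The treated wild-type arrays were the lowest of the 12, and the third untreated wild-type array the highest. Dcn, the matrix proteoglycan decorin, was at 0.87 ± 0.22 and Ecm1, a secreted matrix protein, at 0.73 ± 0.18. Without the third untreated wild-type array the median was 0.64 with 8 markers positive at that level, and with the 5′ to 3′ signal as a covariate 0.54 with 6.

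Bile duct cell markers were on the positive side, with a keratin among them that rose in knock-out liver. Of 12 measured markers 5 were positive and 1 negative at an unadjusted p under 0.05, with a median of 0.84. Krt19, a bile duct keratin, had 8.58, 9.23 and 7.41 in MMS-treated and 6.45, 6.94 and 6.15 in untreated knock-out liver, against 6.49, 7.24 and 6.47 in MMS-treated and 7.69, 7.41 and 7.45 in untreated wild-type liver. Treated values were higher in knock-out and lower in wild-type liver, without overlap. It rose by 1.90 ± 0.40 in knock-out liver (limma adjusted p = 0.0472) and stood at -0.78 ± 0.40 in wild-type liver, a difference of 2.67 ± 0.56. Tff3, a trefoil factor of mucus-secreting epithelia, was at 2.25 ± 0.67, with a fall in wild-type liver of 2.40 ± 0.48. The median of the list was 0.48 without the second MMS-treated knock-out array and 0.29 with the 5′ to 3′ signal as a covariate.

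Endothelial markers were positive at an unadjusted p under 0.05 in 5 of 18, with a median of 0.43, and macrophage markers in 4 of 18, with a median of 0.37, and neither had a negative one. The endothelial median was 0.38 after quantile normalization and 0.17 after centring. The macrophage median was 0.17 and 0.12 in the same order, and 0.14 with the 5′ to 3′ signal as a covariate. Ptprb, a phosphatase of vessel lining, was at 0.69 ± 0.17, Lyve1, a receptor of sinusoidal lining cells, at 1.23 ± 0.36 and Adgre1, which encodes the macrophage marker F4/80, at 0.69 ± 0.21. Macrophage markers positive at that level numbered 1 without the third untreated wild-type array, and 1 without the second MMS-treated knock-out array. Neutrophil markers were positive at that level in 1 of 13, with a median of -0.14. Lymphocyte markers were positive at that level in 3 of 19, with a median of 0.19 that was -0.07 after centring. Neither list had a negative one at that level, at which 10.7% of all genes were positive and 7.74% negative. Hepatocyte markers had a median difference near 0, with 1 of 18 positive (Tat) and 0 negative at that level. Of the acinar markers, Reg1, a secreted protein of the pancreas that regenerating tissue also makes, had 9.85, 10.97 and 7.10 in MMS-treated and 4.27, 5.19 and 6.00 in untreated knock-out liver, against 7.71, 5.01 and 4.74 in MMS-treated and 7.40, 7.01 and 5.96 in untreated wild-type liver. Its difference was 5.12 ± 1.40 (limma adjusted p = 0.146), and the highest Reg1 value was on the second MMS-treated knock-out array, while the acinar list was highest on the first.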

How the data were processed

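Liver RNA of 12 mice was measured on 1-colour Affymetrix arrays. The authors deposited 1 log2 value per probe set and array, made with RMA per the submitters' processing notes, a method that corrects background, equalises arrays and summarises probes. The log base was inferred from the range of values. Detection calls and dates were not used here, and the number of arrays limits the precision. Groups came from the labels, and columns were matched by sample name, with 0 extra sample columns. Of 22690 probe sets, 64 controls were set aside. Through the platform annotation 20380 probe sets had 1 gene symbol, 691 several and 1555 none, and no gene was named from the last 2 kinds. For each gene the probe set of highest mean over the arrays was used.

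One mean per group was fitted to the 12 arrays with limma 3.58.1 in R 4.3.3 (8 residual degrees of freedom), with moderated variances and Benjamini-Hochberg adjustment over 22626 probe sets at 0.05, for 3 contrasts. Errors are standard errors of the fit. The fit was tested on simulated data. Named were Mpg, 12 genes per direction of the difference with the smallest unadjusted p (since none passed), 5 per direction and genotype with the largest called response and groups that do not overlap, and up to 4 members per list with the smallest p of the difference, and not all of these are printed. Genes that spell out a small count (Nes, Tef, Isg20, Dnajb11, Manf, Mdm2, Aen, Cdkn1a, Plk2, Ptprd and Gphn) were chosen after their values were seen. Members, the 40 gene lists and the alternatives were chosen with earlier results of these data known, and lists are described by counts and medians with no set test. Animals are separate by their titles. Animal numbers recur between groups, and the labels do not say whether they pair the animals. Same-numbered arrays deviated together in some pairs and apart in others (7 of 18 pairs over 0.1, range -0.48 to 0.40). They were not treated as pairs. Figures were drawn with matplotlib 3.10.9 in Python 3.11.15.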

Additional observations from a re-analysis of the deposited data

How the results depend on the processing

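The count of probe sets with a difference of responses (0 as reported) was 30 without the lowest 25% by mean level, 43 without the lowest 50%, 28 with a trended robust variance, 2344 with array weights, 514 when arrays 3 of both knock-out groups were left out, 20 with 1 probe set per gene and 3 with probe sets averaged per gene. It was 0 after quantile normalization, after centring, with the 5′ to 3′ covariate and without moderation. Without 1 array at a time it was 0 to 158, with 158 without untreated knock-out array 3, 104 without MMS-treated knock-out array 3, 2 without MMS-treated wild-type array 3 and 1 without MMS-treated knock-out array 2. The knock-out response (341) gave 971 and 1672 under the filters in the same order, 533 after quantile normalization, 1029 with the trended variance, 5790 with array weights, 3326 when arrays 3 of both knock-out groups were left out, 0 with the 5′ to 3′ covariate, 177 with averaged probe sets and 198 without moderation. Without 1 array at a time it was 0 to 3264: 0, 0 and 3264 without MMS-treated knock-out arrays 1, 2 and 3, 0, 1 and 812 without untreated knock-out arrays, 676, 611 and 69 without MMS-treated wild-type arrays, and 30, 13 and 35 without untreated wild-type arrays. The wild-type response (1458) gave 4873 with array weights, 2222 on leaving out those arrays, 2288 with the covariate and 274 to 1798 without 1 array at a time, with 779, 714 and 717 without MMS-treated and 274, 877 and 346 without untreated wild-type arrays. The filters also test fewer probe sets, and fewer arrays change the estimated spread; the cause of the other shifts was not tested. With the animal number as a block the counts were 0 for the difference (lowest limma adjusted p = 0.05004), 19 for the knock-out and 1370 for the wild-type response. The labels do not say whether the numbers pair the animals. Among values of named genes 4087 kept sign and side of the threshold, 290 newly passed it, and 30 changed sign without passing in either setting. No named gene passed as reported, so no call could reverse. Centring turned the median difference negative in 18 of the 28 lists where it was positive. Among them were base excision repair (-0.21), NRF2 (-0.24), NAD metabolism (-0.19) and break and mismatch repair (-0.11). Heat shock (-0.12), p53 targets (-0.13), ribosome biogenesis (-0.02) and lymphocyte markers (-0.07) were others. No list turned the other way, and the median stayed positive for cholesterol synthesis, interferon and stellate markers. Centring lowers every difference by the same amount, so which lists turned was fixed by their medians beforehand. The median over all genes was then -0.20, and of the lists named only base excision repair and NRF2 lay below it. With no detection calls, a dim probe set may stand for an absent transcript.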

Other observations

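The NRF2 list of antioxidant and detoxifying genes had a median difference of 0.02 (-0.24 after centring). At an unadjusted p under 0.05 3 of 31 were positive (9.68%) and 1 negative (3.23%), no more than the 10.7% and 7.74% of all genes. Nqo1, a quinone reductase of this list, had 10.43, 10.57 and 10.25 in MMS-treated and 8.95, 8.72 and 9.50 in untreated knock-out liver, against 9.81, 9.90 and 9.86 in MMS-treated and 9.40, 9.65 and 9.93 in untreated wild-type liver. Nqo1 rose by 1.36 ± 0.20 in knock-out liver (limma adjusted p = 0.0264) and stood at 0.20 ± 0.20 in wild-type liver, a difference of 1.16 ± 0.28 (adjusted p = 0.13). The untreated knock-out values were mostly below the untreated wild-type ones. Slc30a1, the zinc exporter of the cell membrane, rose by 0.66 ± 0.13 in knock-out liver and stood at 0.11 ± 0.13 in wild-type liver. Gar1, a component of small nucleolar ribonucleoproteins in the list of ribosome biogenesis, rose by 1.31 ± 0.25 in knock-out liver and stood at 0.21 ± 0.25 in wild-type liver.

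Genes that are very long had negative responses in both genotypes, with medians of -0.47 in knock-out and -0.45 in wild-type liver over 22 genes, against -0.06 in both genotypes over all genes. In knock-out liver Exoc4, Ptprd, Fto and Gphn fell, where 0.815% of all genes did, and in wild-type liver 6 fell, where 5.33% did. Exoc4, a subunit of the exocyst, which tethers secretory vesicles, fell by 1.53 ± 0.17 in knock-out and 1.03 ± 0.17 in wild-type liver, a difference of -0.50 ± 0.24. Fto, an RNA demethylase, fell by 1.09 ± 0.22 in knock-out liver and stood at -0.37 ± 0.22 in wild-type liver, a difference of -0.72 ± 0.31. The 5′ to 3′ signal differed on 2 MMS-treated knock-out arrays, and with it as a covariate the differences were -0.29 for Exoc4 and -0.24 for Fto.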
